A study of Anopheles gambiae with 18 samples.

Results

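Transcripts of 4 antimicrobial peptides were followed through the sex-specific and compartment-specific assays of the *Anopheles gambiae* midgut: defensin 1 (ENSANGT00000015621), gambicin (ENSANGT00000013255), and the cecropins CEC2/CECC (ENSANGT00000011963) and CEC3/CECB (ENSANGT00000011995). They were taken by their transcript identifiers, and not by any measured value, from the 14198 transcripts on the array. Of the 15495 array features, 5 belonged to them, since defensin 1 had a second feature whose name begins with REP, a prefix that the sources used here do not explain. Other transcripts are given by EN numbers, which shorten these identifiers, and neither sequences nor positions were used here.

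Antimicrobial peptides are short, positively charged secreted peptides that kill microbes, chiefly by disturbing their membranes. In insects their transcription is driven by NF-kB factors at the end of the Imd and Toll pathways, which begin with receptors and circulating proteins that recognise bacterial and fungal cell walls. In the mosquito gut they meet the microbes that are swallowed with sugar and blood, and the cardia, at the entrance of the midgut, is the first compartment of the midgut to receive food.

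The mosquitoes were of the Keele strain, with no transgene or mutation given for them in the labels or methods, and were kept as adults on sugar solution. Two-dye arrays compared RNA of male midgut with that of unfed female midgut, RNA of the cardia with that of the posterior midgut, and RNA of the cardia, the anterior midgut, the anterior-posterior midgut (front part of the posterior midgut) and the posterior-posterior midgut (its rear part) each with that of the whole female midgut. All compartments came from females. Each comparison had 3 arrays, which gives 18 arrays in all, and the labels of 17 of them state an age of 4 days. The first-named sample always carried Cy5 and the other Cy3, so that a dye effect and a difference between samples cannot be told apart. How many mosquitoes went into a sample is not given in the sources used here, and the p-values measure only the spread between these arrays, which may be technical in part.

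The values are log2 Cy5/Cy3 ratios, given here after subtraction of each array's median over 1937 transcripts that the study listed as expressed in the male or female midgut. A value of 1 is thus a 2-fold higher share of the RNA in the first-named sample than is typical of these midgut transcripts. Arrays held 12273 to 15494 values and no signal intensities, so that levels of different genes, of markers of each compartment, or of any gene near background could not be given. The median of all transcripts tested lay between -0.86 and -0.17 in the 6 comparisons, below that of the 1937 transcripts, and it is printed beside each comparison. A transcript was called changed at a mean of at least 2-fold and an adjusted p under 0.05, by limma with Benjamini-Hochberg adjustment over all transcripts tested. Counts at an unadjusted p under 0.05 stand without the share of all transcripts, which was not computed, and so have no background here. Whether a compartment holds more cells that make a peptide or more of its RNA per cell cannot be told apart in such samples.

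All 4 peptide transcripts stood near the top of the cardia versus posterior midgut comparison on every array. Gambicin, a cysteine-rich peptide of mosquitoes, had log2 ratios of 1.48, 1.37 and 1.52 on arrays 1, 2 and 3, the closest replicate values among the 4 transcripts in this comparison. CEC3/CECB, one of the cecropins, which are linear helical peptides, had 1.09, 2.01 and 1.96. CEC2/CECC, the other cecropin, had 1.23, 1.55 and 1.80. All 9 of these values were above 1, which means a ratio of more than 2-fold towards the cardia on each array. Defensin 1, a disulphide-bridged peptide most active against Gram-positive bacteria, had 0.98, 1.25 and 1.46 as the mean of its 2 features. Its plain feature read 0.63, 1.62 and 1.65 and its REP feature 1.33, 0.88 and 1.27, so that both lay above 0 on each array while their order changed between arrays.

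The means were 1.46 ± 0.08 for gambicin, 1.69 ± 0.52 for CEC3/CECB, 1.53 ± 0.29 for CEC2/CECC and 1.23 ± 0.24 for defensin 1 (SD, n = 3 arrays each). As ratios these were 2.75-fold, 3.22-fold, 2.88-fold and 2.35-fold in the cardia relative to the posterior midgut. The median of the 4 was 1.49, beside -0.23 for all 14192 transcripts tested. In that order of means from the highest down, CEC3/CECB had rank 36, CEC2/CECC rank 50, gambicin rank 64 and defensin 1 rank 114. None of the 4 passed the test over all transcripts, of which 0.275% did. The adjusted p by limma was 0.0952 for gambicin, 0.297 for CEC3/CECB, 0.310 for CEC2/CECC and 0.361 for defensin 1, and the unadjusted p of all 4 was under 0.05. The 95% intervals of limma were 0.73 to 2.18 for gambicin, 0.57 to 2.80 for CEC3/CECB, 0.51 to 2.55 for CEC2/CECC and 0.35 to 2.11 for defensin 1, all above 0. A mean of at least 2-fold towards the cardia was found for 4 of the 4 and for 1.3% of all transcripts, and a value above 0 on all 3 arrays for 4 of the 4 and for 9.68% of all transcripts.

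**Figure D1:**
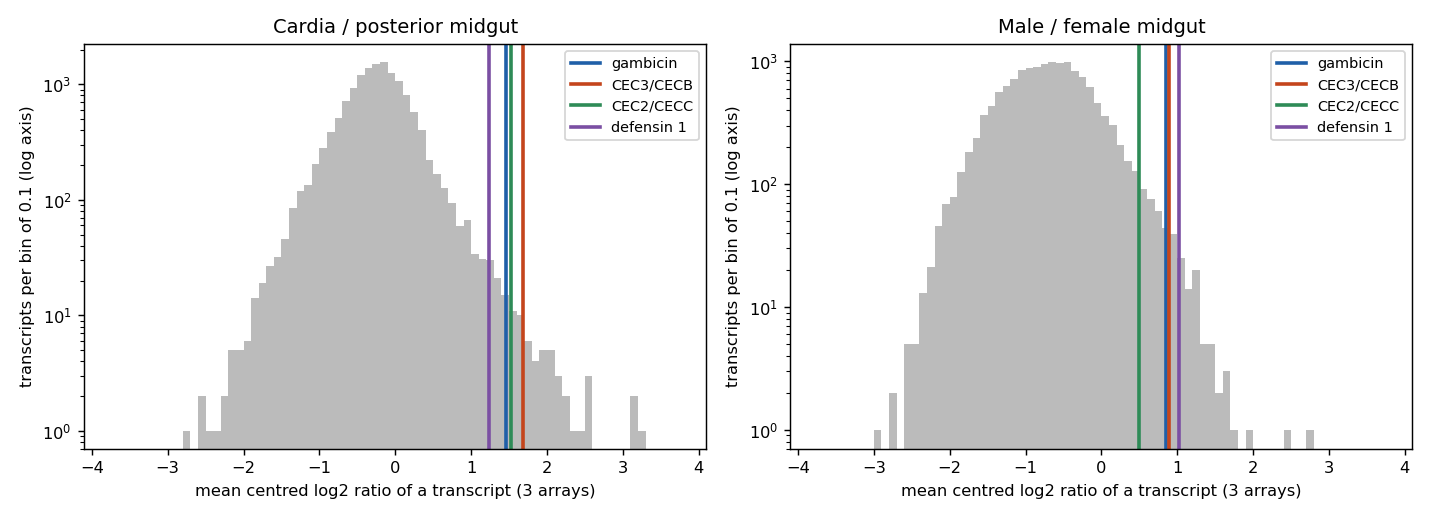
Number of transcripts (log axis) by mean centred log2 ratio over 3 arrays, in grey, for cardia/posterior midgut (left) and male/female midgut (right), with coloured lines at the means of the 4 peptide transcripts. In the left panel the lines stand between 1.23 and 1.69, and in the right panel between 0.50 and 1.02, both to the right of the bulk of all transcripts.

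The place of a transcript among all transcripts of its array does not depend on how the arrays are centred, but it depends on the set ranked. The 1937 midgut transcripts had a median of -0.02 in cardia/posterior, above the -0.23 of all transcripts. Places within the 1937 transcripts were not computed. In the cardia versus posterior midgut comparison the 12 values of the 4 transcripts lay between the 98.5th and the 99.8th percentile of their arrays. A transcript in the top 5% of all 3 arrays was found in 4 of 4 cases here and in 1.16% of all transcripts. Within these arrays the mean difference was smaller than its SD in 4 of the 6 pairs of peptides, such as -0.07 ± 0.28 for gambicin minus CEC2/CECC and 0.16 ± 0.30 for CEC3/CECB minus CEC2/CECC (SD, n = 3). Both cecropins and gambicin lay above the mean of the 2 features of defensin 1 on 3 of 3 arrays. The distance was 0.45 ± 0.33 for CEC3/CECB, 0.29 ± 0.05 for CEC2/CECC and 0.22 ± 0.24 for gambicin (SD, n = 3). Single features did not keep this order. On array 1 the REP feature, at 1.33, lay above CEC3/CECB (1.09) and CEC2/CECC (1.23). On array 2 the plain feature, at 1.62, lay above CEC2/CECC (1.55) and gambicin (1.37).

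The call for gambicin in this comparison depended on what else entered the test. With only the 3104 transcripts of the study's lists tested, gambicin was called (adjusted p = 0.0114 by limma), and that list was chosen in part on these arrays. Without the cardia versus whole midgut arrays in the fit, gambicin (adjusted p = 0.0337 by limma) and CEC2/CECC (adjusted p = 0.0344 by limma) were called at the same means. In that fit 105 of all 14192 transcripts were called. All 4 means kept their direction with 2 other centrings and without any 1 array. On array 3 of cardia/posterior 68.2% of the deposited ratios were fractions of small whole numbers (denominator up to 10), against 23.7% and 32.8% on arrays 1 and 2, and these included the 4.00 of CEC2/CECC and the 3.60 of the plain feature of defensin 1. Their part in the means was not tested, and all 4 transcripts were above the 98th percentile on the other two arrays as well.

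**Figure D2:**
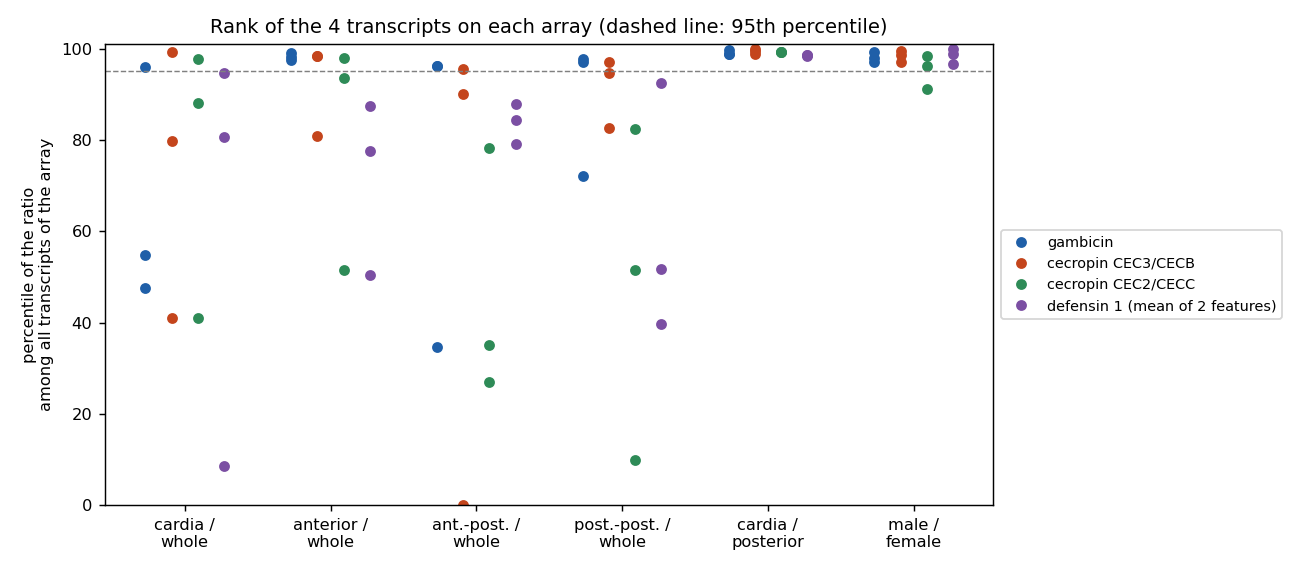
Percentile of each of the 4 peptide transcripts among all transcripts of the same array (y axis, 0 to 100), with 3 points per transcript and comparison, and a dashed line at the 95th percentile. All 12 points of cardia/posterior and 11 of 12 of male/female lie above the line, while the compartment/whole comparisons are spread from 0.0846 to 99.2.

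Male against female midgut, which asks for sex differences in the unfed gut, gave values above 0 on every array for all 4 transcripts. Gambicin had 1.14, 0.91 and 0.50, CEC3/CECB had 0.64, 1.40 and 0.64, and CEC2/CECC had 0.89, 0.15 and 0.47. Defensin 1 had 0.60, 1.14 and 1.34. The arrays thus shared a direction towards the male midgut, but no transcript kept its place in the order of the 4 on all arrays. The means were 0.85 ± 0.32 for gambicin, 0.89 ± 0.44 for CEC3/CECB, 0.50 ± 0.37 for CEC2/CECC and 1.02 ± 0.38 for defensin 1 (SD, n = 3), with a median of 0.87 beside -0.70 for all 14198 transcripts. None was called, against 7.37% of all transcripts, and the unadjusted p was under 0.05 for 2 of the 4. The adjusted p by limma was 0.0902 for gambicin, 0.223 for CEC3/CECB, 0.445 for CEC2/CECC and 0.0931 for defensin 1. A value above 0 on all 3 arrays was found for 5.27% of all transcripts. A place in the top 5% of all 3 arrays was found for 3 of the 4, all but CEC2/CECC, and for 1.38% of all transcripts. These shares are over all transcripts, while the 1937 midgut transcripts had a median of -0.03 in this comparison.

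The male/female value of defensin 1 came from 1 of its features. The REP feature read 0.64, 2.57 and 2.66 on the 3 arrays, with deposited Cy5/Cy3 ratios of 1.46, 7.22 and 5.66. The plain feature read 0.55, -0.28 and 0.01, with deposited ratios of 1.37, 1.00 and 0.899. Both features agreed on array 1 and parted on the other two. Fitted as features of their own among 15495, the REP feature averaged 1.96 ± 1.14 and was called (adjusted p = 0.0445 by limma), and the plain feature averaged 0.09 ± 0.42 (adjusted p = 0.863 by limma, SD, n = 3). The distance between both was larger than that of 99.6% of 786 such pairs of features on array 2 and of 94.8% of the pairs measured on array 3.

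Over the 17 arrays on which both features of defensin 1 had a value, the REP feature exceeded the plain one by 1.00 ± 1.15 (SD), and it was the higher on 13 of 17. The difference was 1.87 ± 1.54 in male/female, 1.74 ± 0.89 in anterior-posterior/whole and 1.31 ± 0.49 in posterior-posterior/whole, each above 0 on 3 of 3 arrays. It was -0.14 ± 0.75 in cardia/posterior and 0.34 ± 0.42 in anterior/whole (SD, n = 3). The mean of both features, which stands for defensin 1 elsewhere in the text, thus hides feature averages of opposite sign in 3 comparisons. These are cardia/whole, anterior-posterior/whole and posterior-posterior/whole. In cardia/whole the features shared a sign on arrays 2 and 3, and the plain feature had no value on array 1. Opposite signs also occurred on array 2 of male/female and array 1 of anterior/whole. Whether both features detect only defensin 1 was not tested, and other transcripts with paired features also differed, by a median of 0.33 to 1.18 depending on the array.

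**Figure D3:**
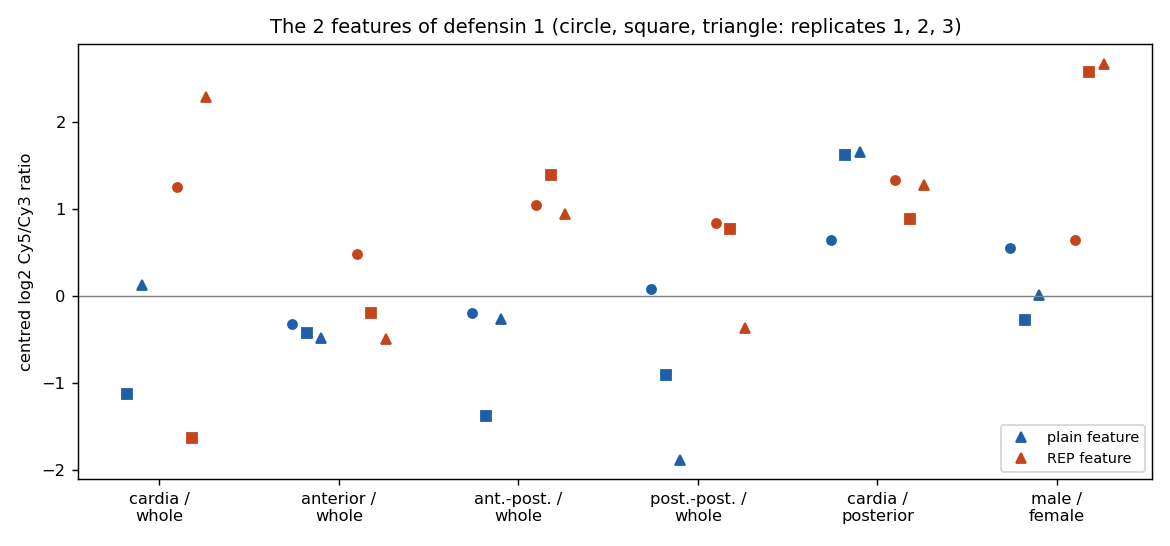
Centred log2 Cy5/Cy3 ratios (y axis) of the plain feature (blue) and the REP feature (red) of defensin 1 on each array of the 6 comparisons, with the replicate shown by the symbol. The features overlap in cardia/posterior and anterior/whole, and the red points stand above the blue ones in anterior-posterior/whole, posterior-posterior/whole and, on arrays 2 and 3, male/female, where red reaches 2.57 and 2.66.

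The cardia set against the whole female midgut gave no such regular picture, since its 3 arrays disagreed. Gambicin had 0.33, -0.13 and 1.37, CEC3/CECB had 1.20, -0.27 and 2.21, and CEC2/CECC had 3.45, -0.27 and 0.67. Defensin 1 had 1.25, -1.39 and 1.20, of which the first value is that of the REP feature alone, the plain one having none on array 1. On array 2 all 4 transcripts were below 0, and on arrays 1 and 3 all 4 were above 0. The means were 0.52 ± 0.77, 1.05 ± 1.25, 1.28 ± 1.94 and 0.36 ± 1.51 for gambicin, CEC3/CECB, CEC2/CECC and defensin 1 (SD, n = 3), beside a median of -0.17 for all transcripts. None was called, against 1.41% of all transcripts, and CEC2/CECC had the smallest adjusted p, 0.179 by limma, as the 1 transcript of the 4 with an unadjusted p under 0.05. Without array 2, CEC2/CECC averaged 2.06 and was called (adjusted p = 0.0272 by limma), with its 2 remaining values at 3.45 and 0.67.

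Array 2 of this comparison differed from its replicates in how its ratios were made up. On it 56.3% of the deposited ratios were such fractions of small whole numbers, against 13.1% and 10.1% on arrays 1 and 3. The deposited ratios of gambicin and of the plain feature of defensin 1 there were 0.400 and 0.200, and both cecropins had the same ratio of 0.364. On array 1, the high value of CEC2/CECC rested on a deposited ratio of 4.57, also such a fraction, on an array with 12273 values. What part this has in the spread of the replicates was not tested.

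**Figure D4:**
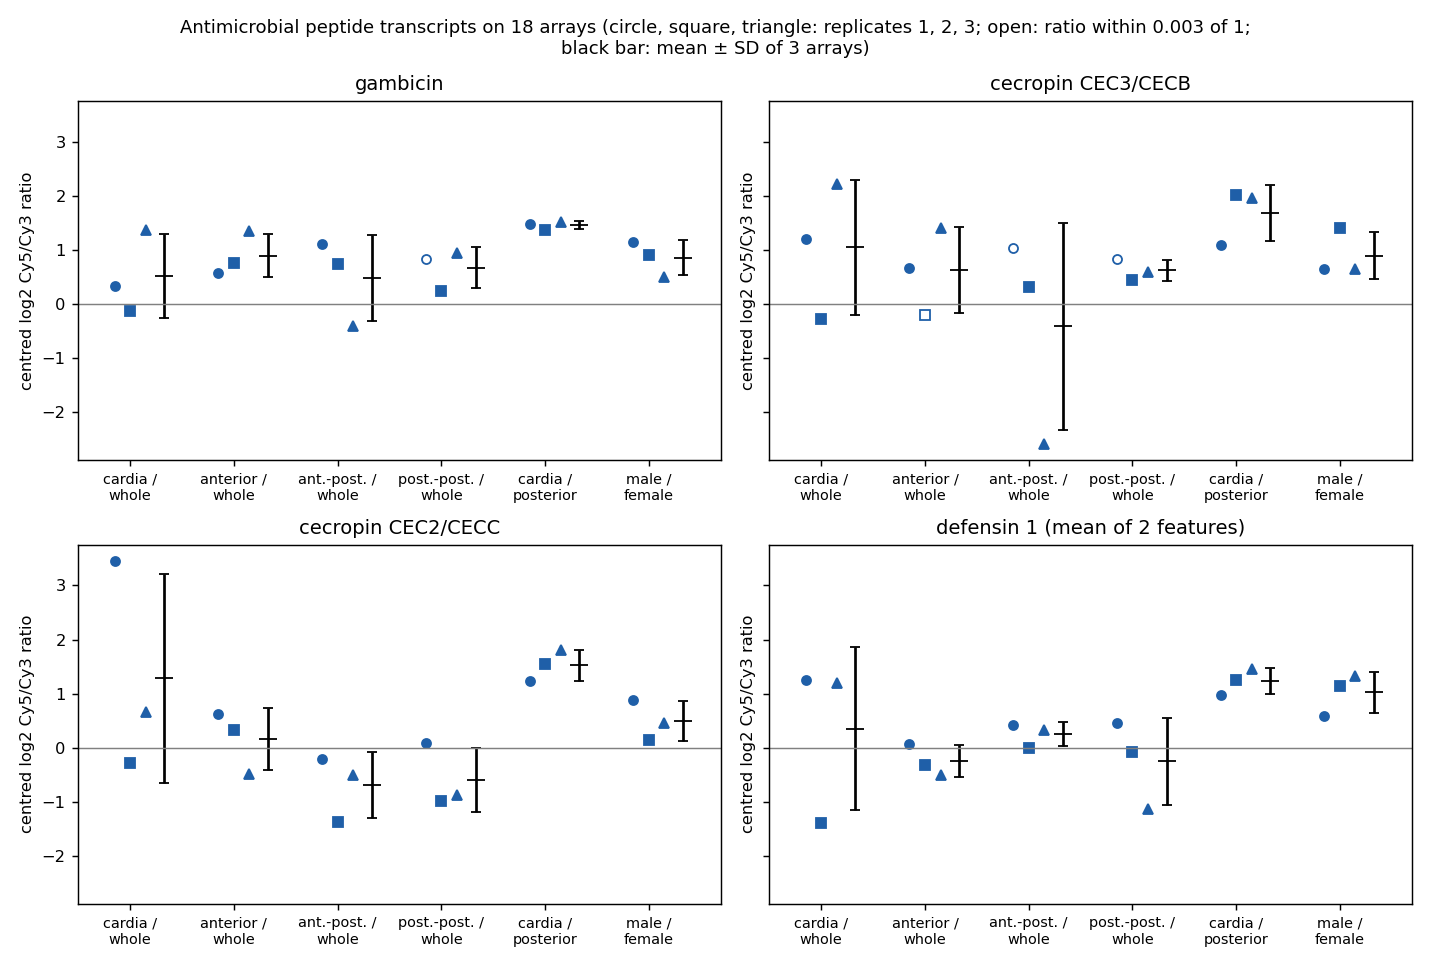
Centred log2 Cy5/Cy3 ratios (y axis) of the 4 peptide transcripts on the 3 arrays of each comparison, with the replicate shown by the symbol, open symbols for deposited ratios within 0.003 of 1, and the mean ± SD in black. Defensin 1 is drawn as the mean of its features with filled symbols only, although single features of it had such ratios. The SD is smallest in cardia/posterior for gambicin (0.08) and largest in cardia/whole for CEC2/CECC (1.94).

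In the anterior midgut against the whole midgut, gambicin had 0.58, 0.76 and 1.35, all towards the anterior midgut. Its mean of 0.89 ± 0.40 (SD, n = 3) was the 131st from the top of 14198 transcripts, and its 3 values lay between the 97.5th and the 98.9th percentile of their arrays. CEC3/CECB had 0.67, -0.20 and 1.40, CEC2/CECC had 0.63, 0.34 and -0.48, and defensin 1 had 0.08, -0.31 and -0.50. Gambicin was therefore the 1 transcript of the 4 above 0 on all 3 arrays, a pattern shown by 6.41% of all transcripts. None of the 4 was called, against 6.08% of all transcripts, and the adjusted p of gambicin was 0.0783 by limma, the 1 transcript of the 4 with an unadjusted p under 0.05. Centring on all transcripts instead raised the values by 0.79 on average, and gambicin then averaged 1.68 and was called (adjusted p = 0.0359 by limma). The means of the others were 0.63 ± 0.80 for CEC3/CECB, 0.16 ± 0.58 for CEC2/CECC and -0.24 ± 0.29 for defensin 1, beside a median of -0.85 for all transcripts, with adjusted p from 0.341 to 0.791 by limma.

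In the anterior-posterior midgut against the whole midgut, gambicin and CEC3/CECB disagreed in direction between arrays. Gambicin had 1.11, 0.74 and -0.40, and CEC3/CECB had 1.04, 0.31 and -2.58. The last value came from a deposited ratio of 0.062 and lay at the 0.0846th percentile of its array, the lowest place of any of the 4 transcripts on the 18 arrays. CEC2/CECC had -0.20, -1.36 and -0.50, below 0 on 3 of 3 arrays, and defensin 1 had 0.42, 0.00 and 0.33, with the plain feature averaging -0.62 ± 0.66 and the REP feature 1.12 ± 0.24 (SD, n = 3). The means of gambicin, CEC3/CECB, CEC2/CECC and defensin 1 were 0.48 ± 0.79, -0.41 ± 1.91, -0.69 ± 0.60 and 0.25 ± 0.22, beside -0.86 for the median of all transcripts. None was called, with adjusted p from 0.254 to 0.631 by limma and 0 of 4 unadjusted p under 0.05, in a comparison where 25.3% of all transcripts were called. The negative mean of CEC2/CECC was thus above the median of all transcripts, and it became 0.19 with arrays centred on all transcripts.

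In the posterior-posterior midgut against the whole midgut, gambicin had 0.83, 0.24 and 0.94 and CEC3/CECB had 0.83, 0.45 and 0.59. CEC2/CECC had 0.08, -0.99 and -0.88, and defensin 1 had 0.45, -0.07 and -1.13. Gambicin and CEC3/CECB were above 0 on 3 of 3 arrays, as were 5.09% of all transcripts, while CEC2/CECC and defensin 1 were above 0 on array 1 alone. The means were 0.67 ± 0.38 and 0.62 ± 0.19 for gambicin and CEC3/CECB, and -0.59 ± 0.59 and -0.25 ± 0.80 for CEC2/CECC and defensin 1 (SD, n = 3), beside -0.51 for all transcripts. None of the 4 and 0% of all 14192 transcripts were called, and the adjusted p of the 4 ran from 0.287 to 0.710 by limma, with 0 of 4 unadjusted p under 0.05. Both cecropins kept an order here that does not depend on centring, with CEC3/CECB above CEC2/CECC by 1.22 ± 0.41 on 3 of 3 arrays, and gambicin lay above CEC2/CECC by 1.26 ± 0.53 (SD, n = 3). In cardia/posterior the same differences were 0.16 ± 0.30 and -0.07 ± 0.28.

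Several of these ratios were almost exactly 1 before centring. On array 1 of posterior-posterior/whole, gambicin, CEC3/CECB and the REP feature of defensin 1 each had a deposited ratio of 0.999, and their shared value of 0.83 is the centring of that array. On array 2 of anterior/whole, CEC3/CECB had 1.00 and the REP feature 0.999, and on array 1 of anterior-posterior/whole they had 1.00 and 1.00. In all, 8 of the 89 feature values of the 4 transcripts lay within 0.003 of 1. Transcripts of ribosomal proteins, which are abundant in every cell, also gathered there on 2 of these 3 arrays: 41.2% of 51 such features on array 2 of anterior/whole and 41.2% on array 1 of posterior-posterior/whole, against 0% to 15.7% on the other 16 arrays. The share over all features of these 2 arrays was 1.06% and 0.737%. Leaving these ratios out called none of the 4 in the compartment comparisons, but it moved some means. That of CEC3/CECB went from 0.63 to 1.04 in anterior/whole and from -0.41 to -1.13 in anterior-posterior/whole. That of defensin 1 went from -0.24 to -0.28 in anterior/whole and from 0.25 to 0.05 in anterior-posterior/whole. The part of these ratios in the means was not tested further.

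**Figure D5:**
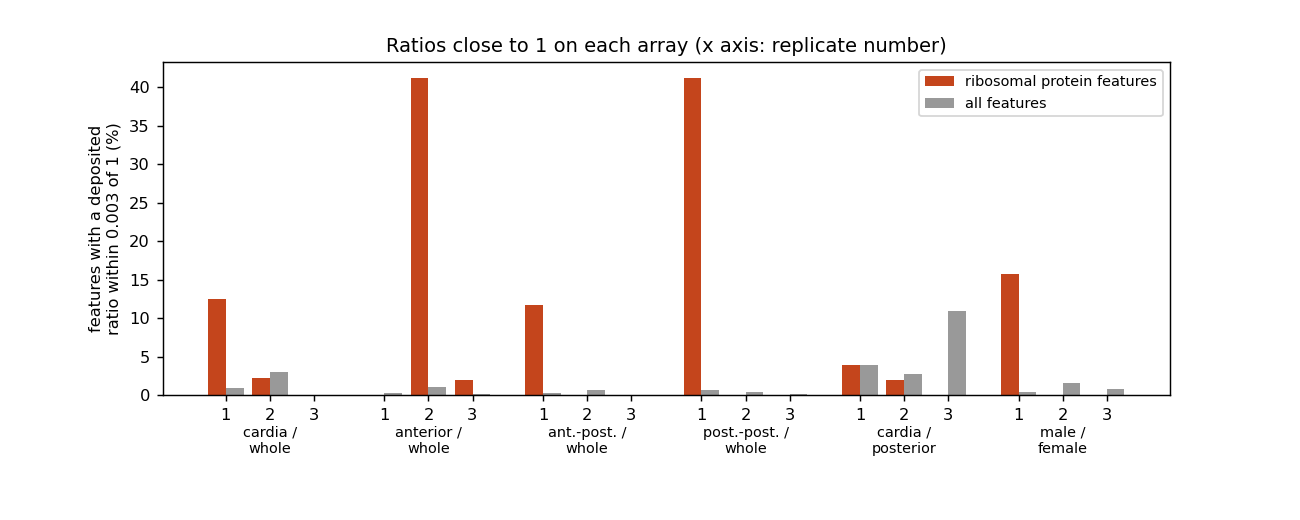
Share of features with a deposited Cy5/Cy3 ratio within 0.003 of 1 (y axis, %) on each of the 18 arrays, for 51 features of ribosomal proteins (red) and all features (grey). The red bars reach 41.2% on array 2 of anterior/whole and array 1 of posterior-posterior/whole, and stay at or below 15.7% elsewhere.

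Compartments were also set against one another through their ratios to the whole midgut, which asks whether a peptide transcript differs along the gut. None of the 4 was called in the 6 such differences. Called were 0.288% of all transcripts for cardia minus anterior, 1.38% for cardia minus anterior-posterior and 0.0649% for cardia minus posterior-posterior, and 0% for the 3 differences without the cardia. CEC2/CECC had the largest values, with 1.97 for cardia minus anterior-posterior (SE 0.69, adjusted p = 0.120 by limma) and 1.88 for cardia minus posterior-posterior (SE 0.69, adjusted p = 0.291 by limma). In both its unadjusted p was under 0.05, which held for no other of the 4 in the 6 differences. CEC3/CECB followed with 1.45 for cardia minus anterior-posterior (SE 0.75, adjusted p = 0.263 by limma). All transcripts had medians of 0.54 for cardia minus anterior, 0.57 for cardia minus anterior-posterior and 0.28 for cardia minus posterior-posterior. Among them the 1.97 and 1.88 of CEC2/CECC lay at percentiles 93.4 and 96.3, and the 1.45 of CEC3/CECB at percentile 83.1. The differences of gambicin ran from -0.37 for cardia minus anterior to 0.41 for anterior minus anterior-posterior, with an SE of 0.49 for each. These 2 lay at percentiles 14.2 and 78.9 of all transcripts. The 95% interval of gambicin for cardia minus posterior-posterior was -1.17 to 0.87, which does not show equal ratios.

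The cardia and the posterior midgut can thus be compared by separate arrays, directly and by way of the whole midgut as the cardia ratio minus the mean of both posterior ratios. For CEC2/CECC the direct value was 1.53 (SE 0.49) and the indirect one 1.92 (SE 0.60). For CEC3/CECB they were 1.69 (SE 0.53) and 0.94 (SE 0.65), and for defensin 1 they were 1.23 (SE 0.42) and 0.35 (SE 0.51). For gambicin they were 1.46 (SE 0.35) and -0.06 (SE 0.42), the widest gap of the 4. The routes stand on different backgrounds. The median of all transcripts was -0.23 in the direct comparison. It was 0.57 for cardia minus anterior-posterior and 0.28 for cardia minus posterior-posterior, the differences that make up the indirect route. The difference between both routes was not tested.

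Genes that act upstream of the peptides were read from 14 transcripts of the Imd and Toll pathways. Limma called 0 of the 14 in cardia/posterior and 0 in male/female, beside 0.275% and 7.37% of all transcripts. At an unadjusted p under 0.05 were 4 and 6 of the 14. Their median in cardia/posterior was -0.03, with a range of -0.72 to 1.08. PGRPS3, a short secreted peptidoglycan recognition protein, averaged 1.08 ± 0.03, and PGRPLC1, listed under the name of the membrane receptor that starts Imd signalling, averaged 0.96 ± 0.18 (SD, n = 3), both above 0 on 3 of 3 arrays. PGRPLC2 and PGRPLC3, listed under the same receptor name, averaged only 0.17 ± 0.27 and 0.21 ± 0.07 (SD, n = 3). REL2, the NF-kB factor of the Imd pathway, averaged -0.71 ± 0.30 and was below 0 on 3 of 3 arrays, with adjusted p of 0.238, 0.241 and 0.823 for PGRPS3, PGRPLC1 and REL2 by limma. In male/female, PGRPS3 averaged 1.03 ± 0.25 (adjusted p = 0.0509 by limma), while the median of the 14 was -0.48.

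Calls among the 14 were made against the whole midgut only, for 1 of 14 in anterior/whole and 2 of 14 in anterior-posterior/whole. Of all transcripts, 6.08% and 25.3% were called there in either direction, and neither count stands out from these shares. The medians of all transcripts were -0.85 and -0.86. The share called higher, the direction of PGRPS3, is not given here, so that its call was not set against a background of its own direction. In the anterior midgut GNBPA2, a Gram-negative bacteria binding protein, was lower with -1.11 ± 0.36 (SD, n = 3, adjusted p = 0.0478 by limma). In the anterior-posterior midgut PGRPS3 was higher with 1.13 ± 0.30 (adjusted p = 0.0245 by limma) and TOLL6, a Toll-family receptor, was lower with -1.28 ± 0.67 (adjusted p = 0.0375 by limma). With arrays centred on all transcripts, GNBPA2 and TOLL6 were at -0.32 and -0.40, under 2-fold, so that their calls were lost, and PGRPS3 was at 2.01. Without centring, the call of PGRPS3 was lost, at 0.14. No transcript of the 14 was called in cardia/whole or posterior-posterior/whole.

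Lysozymes, enzymes that cut bacterial cell walls and work beside the peptides, were also uneven in cardia/posterior. Of 4 lysozyme transcripts limma called 0 in each of the 6 comparisons, where 0% to 25.3% of all transcripts were called. The share of all transcripts called in cardia/posterior was 0.275%. At an unadjusted p under 0.05 were 3 of the 4 there, a count for which the share of all transcripts was not computed. In cardia/posterior EN025070 averaged 2.59 ± 0.32 (adjusted p = 0.0710 by limma), EN018439 averaged 1.39 ± 0.19 (adjusted p = 0.0859 by limma) and EN018395 averaged 0.96 ± 0.48, each above 0 on 3 of 3 arrays, while EN025055 averaged -0.79 ± 0.19 (SD, n = 3).

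Markers of other tissues that a dissected gut can carry were read in the same comparisons. In cardia/posterior the 3 salivary gland transcripts ranged from -0.80 to 1.06 with a median of 0.64, of 3 haemocyte transcripts prophenoloxidase 1 averaged 1.63 ± 0.14 (SD, n = 3) and the other two averaged -0.26 and -0.31, and 5 muscle tropomyosins ranged from -2.10 to 1.06. The 6 digestive enzymes of the posterior midgut ranged from -0.86 to 0.34, with a median of -0.34 beside -0.23 for all transcripts. In male/female, where the peptide transcripts also lay high, salivary SG2 averaged 1.60 ± 0.19 and SG3 averaged 1.23 ± 0.37, both above 0 on 3 of 3 arrays, while SG1-like 3 averaged -1.28 ± 0.93 (SD, n = 3). No marker was called by limma in these 2 comparisons, beside 0.275% and 7.37% of all transcripts. At an unadjusted p under 0.05 were 3 of the 17 in cardia/posterior and 5 of the 17 in male/female. The part of other tissues in the peptide values was not tested. In anterior-posterior/whole trypsin 3, trypsin 4 and carboxypeptidase EN021052 were called higher, at 1.50, 1.39 and 1.45, and prophenoloxidase 1 and 7 were called lower, at -1.71 and -1.15. These were 5 of the 17 markers, 3 higher and 2 lower, in a comparison where 25.3% of all transcripts were called in either direction. The median of all transcripts there was -0.86. The share called higher is not given here, so that the 3 higher calls were not set against a background of their own direction. The calls of both prophenoloxidases were lost with arrays centred on all transcripts, at -0.83 and -0.27, and those of the 3 enzymes without centring, at 0.52, 0.40 and 0.47.

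Over the 18 arrays, the transcript most like the mean of the 4 peptides was EN013392, a peritrophin precursor, with a Pearson r of 0.90 among 9608 transcripts with a value on all arrays. Peritrophins are chitin-binding proteins of the peritrophic matrix, the sheet that lines the gut lumen. Next came EN011659, a sensory appendage protein, with 0.88, then EN029111, with a chitin-binding peritrophin A domain in its description, with 0.87. EN027422, which has no usable description here, had 0.86 and EN012705, again with a chitin-binding peritrophin A domain, had 0.85. Their means in cardia/posterior were 1.79, 1.16, 1.96, 2.26 and 1.47 in this order, and in male/female 0.63, 1.03, 0.87, 1.00 and 0.71. The 18 points fall into 6 comparisons of 3 arrays and share each array's centring, and with arrays centred on all transcripts these 5 held places 1, 3, 5, 4 and 7.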

How the data were processed

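Midgut RNA was hybridized to 60-mer oligonucleotide arrays with Cy5 and Cy3 labels. The methods describe scanning with GenePix software, a signal threshold and LOWESS normalization. The values the authors deposited are log2 Cy5/Cy3 ratios per feature without intensities, and array medians that differ within a comparison show no such normalization, so that dye bias that varies with intensity may remain. Placeholder ratios of 100000 (120 values) were treated as missing. Features were averaged per transcript (14198 transcripts, 1156 with more than 1 feature) and each array was centred on the median of 1937 transcripts from the study's list for the male versus female assay. The fold changes in the study's lists were not used.

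One limma 3.58.1 model (R 4.3.3) was fitted to 18 arrays with 6 group means, for transcripts with values on at least 2 arrays of a comparison, with a prior of 7.04 and a residual of 12 degrees of freedom, so that all comparisons share 1 spread per transcript. It was tested on simulated data. Tables were made with Python 3.11, pandas 2.3.3 and NumPy 2.4.6 and figures with matplotlib 3.10.9. The number of arrays limits the precision. Alternatives were other centrings, other tested sets, the 3 arrays of a comparison alone, a replicate block, arrays left out, the median of features, a filter, the methods' t-test and, chosen after seeing the data, ratios near 1 set to missing and single features. The named genes were the 4 peptides, called members of fixed lists and the 5 transcripts most like the mean of the 4; other list transcripts were named after their values were seen. The peptides and lists were chosen with earlier results of these data known.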

Additional observations from a re-analysis of the deposited data

How the results depend on the processing

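Without any centring, which leaves the medians of the 1937 transcripts at -1.86 to 0.28 between arrays, the compartment/whole means turned negative for gambicin, CEC3/CECB, CEC2/CECC and defensin 1 in cardia/whole (-0.92, -0.39, -0.15 and -1.08), for CEC2/CECC in anterior/whole (-0.18), for gambicin and defensin 1 in anterior-posterior/whole (-0.50 and -0.73) and for gambicin and CEC3/CECB in posterior-posterior/whole (-0.16 and -0.20). The number of the 4 called was then 1 in cardia/whole, 2 in anterior-posterior/whole and 2 in posterior-posterior/whole, all lower. Of all transcripts, 11010 of 13878, 11767 of 14195 and 10147 of 14192 were called there without centring, so that these counts do not stand out from the background. Centred on all transcripts, defensin 1 was at 0.55 in anterior/whole and 0.23 in posterior-posterior/whole, and CEC3/CECB and CEC2/CECC were at 0.47 and 0.19 in anterior-posterior/whole. In this setting 1 of the 4 was called in anterior/whole, beside 455 of 14198 transcripts. Of the differences between compartments, those of CEC3/CECB and defensin 1 for cardia minus anterior were -0.27 and -0.10 centred on all transcripts and -0.67 and -0.49 without centring, and those of gambicin and defensin 1 for cardia minus anterior-posterior were -0.75 and -0.68, and -0.42 and -0.35. Without centring, CEC3/CECB and defensin 1 were at -0.19 and -0.0044 for cardia minus posterior-posterior, and defensin 1 was at 0.14 for anterior minus anterior-posterior. Centred on all transcripts, gambicin and CEC2/CECC were at 0.21 and 0.30 for anterior-posterior minus posterior-posterior.

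Read from single features, defensin 1 was at -0.51 in cardia/whole, -0.62 in anterior-posterior/whole, -0.095 for cardia minus anterior and 0.20 for anterior minus anterior-posterior with the plain feature, and at 0.41 in posterior-posterior/whole, -0.49 for cardia minus anterior-posterior and -0.48 for anterior minus posterior-posterior with the REP feature, which was called at 1.96 in male/female. The number of the 4 called in cardia/posterior was 1 with only the study's lists tested, 2 without the cardia versus whole arrays and 4 by the methods' unadjusted t-test, which called 0 after Benjamini-Hochberg adjustment. Of all 14192 transcripts, 105 were called there without the cardia versus whole arrays and 322 by the unadjusted t-test. The total with only the study's lists tested is not given here, so that this count has no background. In male/female the number of the 4 called was 1, defensin 1, by limma on the 3 arrays alone (adjusted p = 0.0275), without the cardia versus whole arrays (0.0304), with ratios near 1 missing (0.0497) and by the unadjusted t-test. Of all 14198 transcripts, 4273 were called there on the 3 arrays alone. The number was 2887 without the cardia versus whole arrays and 1356 by the unadjusted t-test. With ratios near 1 missing, array 2 lost the plain feature of defensin 1 (deposited ratio 1.00) and kept the REP feature at 2.57. The plain feature alone averaged 0.09 (adjusted p = 0.863 by limma).

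Leaving out 1 array, the means of cardia/posterior ranged over 1.43 to 1.50 for gambicin, 1.52 to 1.98 for CEC3/CECB, 1.39 to 1.67 for CEC2/CECC and 1.12 to 1.36 for defensin 1. The sign changed for defensin 1 in cardia/whole (-0.093 to 1.23) and posterior-posterior/whole (-0.60 to 0.19), CEC2/CECC in anterior/whole (-0.070 to 0.49) and CEC3/CECB in anterior-posterior/whole (-1.13 to 0.68, positive without array 3). Among the differences it changed for CEC3/CECB in cardia minus anterior (-0.16 to 1.08), in cardia minus posterior-posterior (-0.16 to 1.08), in anterior minus anterior-posterior (-0.049 to 1.76), in anterior minus posterior-posterior (-0.39 to 0.41) and in anterior-posterior minus posterior-posterior (-1.76 to 0.051). It changed for gambicin in cardia minus anterior-posterior (-0.41 to 0.36), cardia minus posterior-posterior (-0.57 to 0.18), anterior minus anterior-posterior (-0.034 to 0.72), anterior minus posterior-posterior (-0.0012 to 0.38) and anterior-posterior minus posterior-posterior (-0.50 to 0.26). It changed for defensin 1 in cardia minus anterior-posterior (-0.35 to 0.97) and anterior minus posterior-posterior (-0.43 to 0.36), and for CEC2/CECC in anterior-posterior minus posterior-posterior (-0.34 to 0.25). The number of the 4 called ranged from 0 to 1 in cardia/whole and in cardia minus anterior-posterior, where CEC2/CECC reached 2.75 without array 2 of cardia/whole (adjusted p = 0.0324 by limma), and was 0 elsewhere.

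The replicate block called 0 of the 4 in all 12 comparisons and differences. Same-numbered arrays did not deviate together (r from -0.37 to 0.28 over 45 pairs, 5 over 0.1), and 2 of 18 arrays were closest to one of their own number. The number of all transcripts called moved with the setting: in cardia/posterior it was 39, and 76 centred on all transcripts, 24 without centring, 105 without the cardia versus whole arrays, 21 with the block, 0 on 3 arrays alone and 2 to 13 without 1 array. In male/female it was 1047, and 154, 1089, 2887, 0, 4273 and 0 to 821 in the same order. In cardia/whole it was 195, and 439, 11010, not run, 20, 0 and 141 to 698, in anterior/whole 863, and 455, 7927, 3469, 0, 5234 and 0, and in anterior-posterior/whole 3585, and 1156, 11767, 5066, 2629, 381 and 0 to 6286. In posterior-posterior/whole it was 0, and 25 and 10147 under the other centrings. The methods' unadjusted t-test called 322 transcripts in cardia/posterior and 1356 in male/female. In all other settings run, direction and call of the 4 were kept. The causes were not tested.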
